A study of Sus scrofa with 6 samples.

Results

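The SLC25 family comprises the mitochondrial carriers, membrane proteins that move metabolites, nucleotides, cofactors and metals between the cytosol and the mitochondrial matrix. Its genes were taken from a table of pig gene expression as the rows whose Ensembl pig gene name is SLC25A followed by a number. There were 36 such genes among 20131 genes in the table. The rule uses the name and no expression value. The cells were pgEpiSC, pig pre-gastrulation epiblast stem cells derived from the epiblast of Sus scrofa embryos at embryonic day 10, and pEF, porcine embryonic fibroblasts from fetuses at embryonic day 30. RNA was sequenced from 4 pgEpiSC and 2 pEF libraries, described by the submitters as biological replicates, and no genetic change or drug treatment is named for either kind of cell. The labels do not say whether the pgEpiSC libraries came from 1 line or several, nor how many fetuses gave the pEF, so p-values measure the spread between these libraries only.

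Most mitochondrial carriers sit in the inner membrane, share a repeated fold of membrane-spanning helices, and exchange one solute for another or carry a solute with protons. They connect glycolysis, the citric acid cycle, the malate-aspartate shuttle, amino acid breakdown and the supply of cofactors on both sides of the membrane. ADP/ATP carriers and the phosphate carrier serve oxidative phosphorylation in nearly every cell, while other members are restricted in tissue. Carriers are made in the cytosol and inserted into the inner membrane by the TIM22 translocase with the help of small TIM chaperones.

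Expression was given as TPM, a measure of transcript abundance corrected for transcript length, so levels can be compared between genes. The listed genes summed to 157288, 320206, 209030 and 166208 TPM in pgEpiSC libraries 1 to 4 and to 93556 and 145611 TPM in pEF libraries 1 and 2. How deeply each was sequenced is not known from TPM. Because of these unequal sums, calls are counted for the values as deposited and after median-ratio scaling. This scaling divides every library by 1 factor (0.697, 2.15, 1.61 and 0.722 for pgEpiSC, 0.569 and 0.944 for pEF). Folds are given on both scales for most carrier genes. For some genes of the lists only the fold as deposited is given, and a lone fold without a stated scale is as deposited. Over the 29 carrier genes that could be tested, pgEpiSC libraries 1 and 4 differed by a median of 0.09 log2 units as deposited, against 0.50 to 1.10 for the other 5 pairs of pgEpiSC libraries. After scaling the value was 0.12 for libraries 1 and 4 and 0.15 to 0.41 for the other pairs, so this pair was closer than the others on both scales. Of the epiblast markers, 6 of 6 were in the table, with a sum of 415 to 1801 TPM in pgEpiSC and 0.118 to 0.660 TPM in pEF, and 1 was listed at 0 in both pEF libraries. Fibroblast markers (7 of 8 in the table) summed to 1.91 to 6.33 TPM in pgEpiSC and 469 to 1282 TPM in pEF, where none was at 0. Smooth muscle markers (4 of 4) summed to 5.29 to 25.5 TPM in pgEpiSC and 958 to 3027 TPM in pEF, and their part in the carrier results was not tested. Trophectoderm, hypoblast, endothelial and blood markers summed to at most 10.7 TPM in any library.

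Most of the 36 carrier genes were expressed in both kinds of cell, and among them 1 gene dominated. SLC25A3, which encodes the phosphate carrier that brings phosphate into the matrix for ATP synthesis, was at 122, 423, 181 and 125 TPM in pgEpiSC libraries 1 to 4 and at 79.6 and 132 TPM in pEF libraries 1 and 2. It alone held 52.0 to 60.5% of the summed TPM of the 36 genes in pgEpiSC and 49.0 and 50.8% in pEF. The 5 most abundant members of each library together held 68.9 to 76.6% in pgEpiSC and 69.3 and 71.2% in pEF.

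SLC25A4, the ADP/ATP carrier best known from heart and muscle, came next by group mean among the 36 genes. Its level was 14.1, 23.3, 13.0 and 16.8 TPM in pgEpiSC and 9.84 and 16.9 TPM in pEF, and the groups overlapped. SLC25A31, an ADP/ATP carrier that in mouse and human is mainly found in male germ cells, stayed at or below 0.0990 TPM in pgEpiSC and 0.0294 TPM in pEF and was listed at 0 in 1 library of each group. SLC25A4 thus made up 99.8 ± 0.348% of the summed TPM of these 2 genes in pgEpiSC and 99.9 ± 0.211% in pEF (SD, n = 4 and 2). An exact permutation test of this difference, two-sided, gave p = 0.867, with 0.0667 as the smallest value that the 15 splits can give. With SLC25A31 near 0 in every library, the share stays close to its ceiling whatever the level of SLC25A4. The test therefore cannot decide whether the balance of ADP/ATP carriers differs. The ADP/ATP carrier genes SLC25A5 and SLC25A6 were not analysed here, so the full ADP/ATP carrier pool is not described by this share. The share and rank of SLC25A3 and the rank of SLC25A4 likewise hold among the 36 genes only.

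In pgEpiSC, 10 of the 36 genes averaged at least 10 TPM, and in pEF 3 did. After SLC25A3 and SLC25A4 the most abundant were SLC25A10, SLC25A1 and SLC25A20 in pgEpiSC and SLC25A17, SLC25A24 and SLC25A1 in pEF. SLC25A1, the citrate carrier whose export of citrate feeds cytosolic acetyl-CoA, was at 6.85, 32.5, 13.8 and 6.92 TPM in pgEpiSC and 6.32 and 9.58 TPM in pEF. SLC25A20, the carnitine-acylcarnitine carrier of fatty acid oxidation, was at 9.97, 19.4, 15.7 and 10.3 TPM in pgEpiSC and 5.67 and 6.27 TPM in pEF. Its groups did not overlap as deposited but did after scaling, where it was at 14.3, 9.02, 9.75 and 14.2 scaled TPM in pgEpiSC and 9.95 and 6.64 in pEF. At the other end, 8 genes averaged under 1 TPM in both groups.

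**Figure D1:**
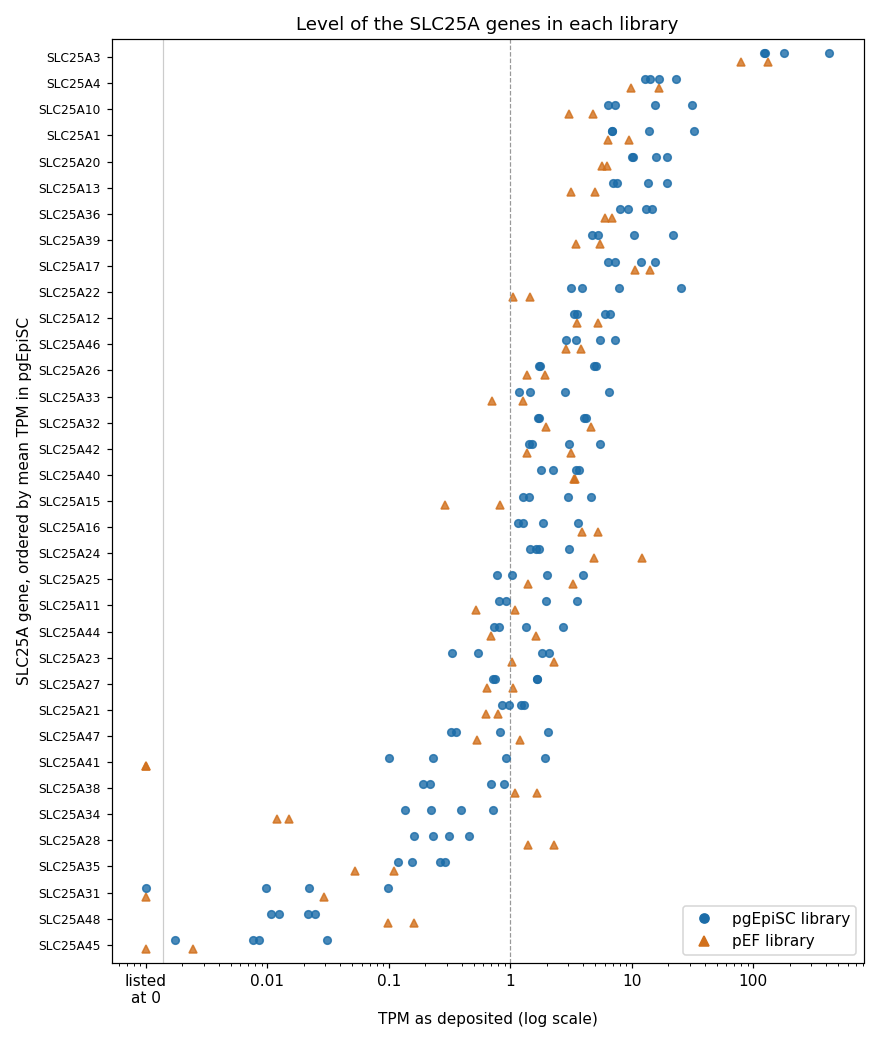
TPM as deposited of 35 of the 36 SLC25A genes on a logarithmic axis, with circles for the 4 pgEpiSC libraries and triangles for the 2 pEF libraries; the dashed line marks 1 TPM and values listed at 0 are drawn left of the grey line. SLC25A3 lies above all other members in every library, and SLC25A24 and SLC25A28 are among the genes whose pgEpiSC circles all lie left of the pEF triangles.

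The summed level of the 36 genes was 215, 699, 348 and 224 TPM in pgEpiSC and 162 and 259 TPM in pEF. As a share of all listed TPM this was 0.164 ± 0.0390% in pgEpiSC and 0.176 ± 0.00292% in pEF (SD, n = 4 and 2), with the pEF libraries inside the pgEpiSC range of 0.135 to 0.218%. The order of the means depended on the denominator, since over genes with a symbol alone the shares were 0.276 ± 0.0563% in pgEpiSC and 0.228 ± 0.00408% in pEF. After scaling the sum was 309, 325, 216 and 310 in pgEpiSC and 285 and 274 in pEF, and the groups overlapped.

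A gene was tested where it reached 1 TPM in at least 2 libraries, which held for 29 of the 36 members. Folds are given as log2 of pgEpiSC over pEF on TPM + 1, with a standard error, and a gene is called where its limma p-value, adjusted by Benjamini and Hochberg's method across the 10424 genes tested, is below 0.05. As deposited, 2 members were called higher in pgEpiSC, against a background of 18.0% of all tested genes, and 2 were called lower, against 9.43%. Together they were 13.8% of the 29 members, where 27.4% of all tested genes were called. The median fold of the tested members was 0.28, beside 0.48 for all tested genes. After scaling 4 members were called higher (background 27.0%) and 9 lower (background 30.9%), 44.8% of the 29 members beside 57.9% of all genes. The medians were then -0.17 for the members and 0.02 for all tested genes. The 4 members called as deposited were also called after scaling, in the same directions. Of the pair of libraries that lay close together, leaving out pgEpiSC replicate 1 ended none of these 4 calls as deposited and leaving out replicate 4 ended that of SLC25A24. As deposited, every pgEpiSC library lay above both pEF libraries for 7 members (background 36.6%) and below both for 4 (background 12.9%), 37.9% of the members beside 49.5% of all genes. After scaling this held for 6 (background 34.5%) and 11 members (background 35.9%), 58.6% beside 70.5%. In libraries of bulk RNA, fewer cells of a type and less RNA per cell cannot be told apart.

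**Figure D2:**
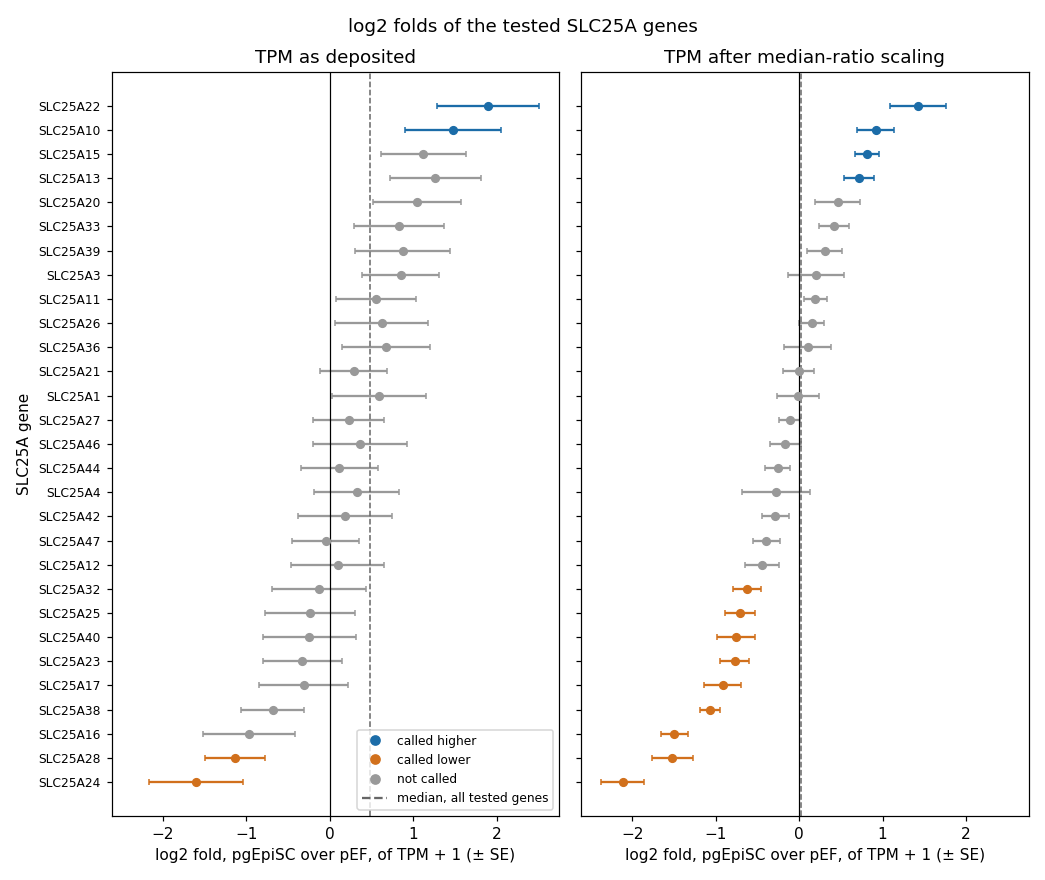
log2 fold of pgEpiSC over pEF for the 29 tested SLC25A genes, with standard errors, for TPM as deposited on the left and after median-ratio scaling on the right; colour marks genes called higher or lower by limma and the dashed line is the median of all tested genes. SLC25A22 and SLC25A10 are called higher and SLC25A24 and SLC25A28 lower in both panels, and the standard errors are smaller after scaling (median 0.19, against 0.54 as deposited).

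Of the carriers of carboxylates, SLC25A10 rose (background 18.0% as deposited and 27.0% after scaling) and the other 4 tested genes were not called on either scale. SLC25A10 (ENSSSCG00000033620) encodes the dicarboxylate carrier, which exchanges malate or succinate for phosphate. It was at 6.36, 31.4, 15.7 and 7.22 TPM in pgEpiSC and 3.02 and 4.81 TPM in pEF, so all 4 pgEpiSC libraries lay above both pEF libraries. The fold was 1.48 ± 0.57 (limma, adjusted p = 0.0485) and 0.92 ± 0.23 after scaling (adjusted p = 0.00885). Leaving out pgEpiSC replicate 2 or 3 ended the call as deposited (folds of 1.05 and 1.37), and so did leaving out pEF replicate 1 or 2 (1.21 and 1.74). The scaled call was lost without either pEF library (0.94 and 0.89). The call as deposited also did not hold with a pseudocount of 5 (1.02), with libraries rescaled to 1000000 TPM (0.86), with no filter, with a filter at a mean of 5 TPM or without the variance trend. SLC25A11, the oxoglutarate-malate carrier of the malate-aspartate shuttle, was at 0.931, 3.53, 1.97 and 0.815 TPM in pgEpiSC and 0.527 and 1.09 TPM in pEF. Within each library SLC25A10 exceeded SLC25A11 by 6.83, 8.91, 7.97 and 8.86 times in pgEpiSC and by 5.73 and 4.43 times in pEF. This ratio does not depend on the scale of a library, and its groups did not overlap. The same held for 7 of the 9 pairs of related genes with a value in every library, this pair included. The share among gene pairs in general was not worked out. Of single tested genes, 70.5% did not overlap after scaling. SLC25A1 was not called, and its fold changed sign from 0.59 as deposited to -0.01 after scaling. SLC25A21, the oxoadipate carrier of lysine breakdown, was at 0.856 to 1.31 TPM in pgEpiSC and 0.634 and 0.790 TPM in pEF, was not called and passed the filter through pgEpiSC alone; its fold was 0.28 as deposited and -0.01 after scaling.

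Of the 6 tested carriers of amino acids, SLC25A22 rose on both scales. After scaling alone SLC25A13 and SLC25A15 also rose and SLC25A38 fell, and the other 2 were not called. The background was 18.0% higher and 9.43% lower as deposited, and 27.0% and 30.9% after scaling. SLC25A22 (ENSSSCG00000012844), a glutamate carrier that takes glutamate into the matrix with a proton, had the highest log2 fold of TPM + 1 among the 29 tested members on both scales. It was at 3.93, 25.4, 7.91 and 3.17 TPM in pgEpiSC and 1.05 and 1.46 TPM in pEF, with pgEpiSC library 2 far above the other 3. The fold was 1.89 ± 0.61 (limma, adjusted p = 0.0180) and 1.42 ± 0.33 after scaling (adjusted p = 0.00697). As deposited the call was lost without pEF replicate 1 or 2 (1.76 and 2.02), and after scaling without pEF replicate 2 (1.34). A pseudocount of 5 (1.06) or no filter on low values also ended the call as deposited.

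The aspartate-glutamate carriers export aspartate from the matrix in exchange for glutamate and are a step of the malate-aspartate shuttle. SLC25A13, known as citrin and prominent in liver, was at 7.05, 19.6, 13.6 and 7.60 TPM in pgEpiSC and 3.19 and 4.95 TPM in pEF. The groups did not overlap; it was not called as deposited (1.27 ± 0.55, limma, adjusted p = 0.0787) and was called higher after scaling (0.71 ± 0.18, adjusted p = 0.0101). The scaled call did not hold without pEF replicate 1 or 2 (0.75 and 0.67). Its paralogue SLC25A12, known as aralar and prominent in brain and muscle, was at 3.53, 6.60, 6.02 and 3.34 TPM in pgEpiSC and 3.53 and 5.27 TPM in pEF. It was not called, with a fold of 0.10 as deposited that turned to -0.44 after scaling (adjusted p = 0.0920). The TPM ratio of SLC25A12 to SLC25A13 was 0.501, 0.337, 0.441 and 0.439 in pgEpiSC and 1.11 and 1.06 in pEF. SLC25A13 was thus the more abundant of the pair in every pgEpiSC library, while in pEF the genes were near equal, a difference of -1.35 log2 units between the groups.

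SLC25A15, the ornithine carrier that links cytosolic and matrix steps of arginine and polyamine metabolism, was at 1.44, 4.63, 2.99 and 1.26 TPM in pgEpiSC and 0.290 and 0.822 TPM in pEF, so it passed the filter through pgEpiSC alone. It was not called as deposited (1.12 ± 0.51, limma, adjusted p = 0.0935) and rose after scaling (0.81 ± 0.14, adjusted p = 0.00169), a call kept with each of the 6 libraries left out. SLC25A38, which supplies glycine for the first step of heme synthesis, was at 0.191, 0.889, 0.694 and 0.219 TPM in pgEpiSC and 1.09 and 1.66 TPM in pEF. It passed the filter through pEF alone. Its groups did not overlap, and it was not called as deposited (-0.69 ± 0.37, adjusted p = 0.169) but fell after scaling (-1.07 ± 0.12, adjusted p = 0.000167), with each library left out as well. SLC25A44, a carrier of branched-chain amino acids, was at 0.803, 2.70, 1.36 and 0.731 TPM in pgEpiSC and 0.694 and 1.63 TPM in pEF and was not called; its fold was 0.11 as deposited and -0.26 after scaling. SLC25A44 exceeded SLC25A38 by 4.21, 3.04, 1.96 and 3.34 times in pgEpiSC, and was below it in pEF (ratios of 0.635 and 0.982).

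Of the 7 tested carriers of nucleotides and phosphate, SLC25A24 fell on both scales, its relatives SLC25A23 and SLC25A25 fell after scaling alone, and the other 4 were not called. Among all tested genes 9.43% were called lower as deposited and 30.9% after scaling. The carriers encoded by SLC25A23, SLC25A24 and SLC25A25 exchange ATP-Mg for phosphate and so change the adenine nucleotide content of the matrix; several are activated by calcium. SLC25A24 (ENSSSCG00000006848) had the lowest log2 fold of TPM + 1 among the 29 tested members on both scales. It was at 1.74, 3.02, 1.64 and 1.46 TPM in pgEpiSC and 4.94 and 12.2 TPM in pEF, and the groups did not overlap. The fold was -1.61 ± 0.56 (limma, adjusted p = 0.0298) and -2.12 ± 0.26 after scaling (adjusted p = 0.000234). Leaving out pgEpiSC replicate 3 or 4 ended the call as deposited (-1.56 and -1.53), and so did leaving out either pEF library (-2.18 without replicate 1 and -1.03 without replicate 2). With no filter it was not called either. After scaling it was kept with each library left out (-2.38 to -1.85).

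The related SLC25A25 was at 1.03, 4.01, 2.01 and 0.782 TPM in pgEpiSC and 1.39 and 3.27 TPM in pEF, and SLC25A23 was at 0.333, 2.10, 1.83 and 0.541 TPM in pgEpiSC and 1.04 and 2.28 TPM in pEF. Both overlapped between the groups and were not called as deposited (folds of -0.23 and -0.33), and both fell after scaling (-0.71 ± 0.18, adjusted p = 0.0100, and -0.77 ± 0.18, adjusted p = 0.00634, limma). These scaled calls were lost without pEF replicate 2, with folds of -0.52 for SLC25A25 and -0.64 for SLC25A23. The ratio of SLC25A25 to SLC25A24 was 0.594, 1.33, 1.23 and 0.534 in pgEpiSC and 0.281 and 0.269 in pEF, without overlap. The ratio of SLC25A23 to SLC25A24 ranged from 0.192 to 1.12 in pgEpiSC and overlapped the pEF values of 0.211 and 0.187. SLC25A41, also an ATP-Mg/phosphate carrier, was at 0.101, 0.923, 1.94 and 0.233 TPM in pgEpiSC and listed at 0 in both pEF libraries, so it did not pass the filter. In the Sscrofa11.1 annotation SLC25A41 lies next to SLC25A23, with 0 genes between them.

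The other nucleotide and phosphate carriers were not called on either scale. SLC25A3 had a fold of 0.85 ± 0.46 as deposited and 0.20 ± 0.34 after scaling (limma, adjusted p = 0.171 and 0.624), and SLC25A4 of 0.32 ± 0.51 and -0.28 ± 0.41 (adjusted p = 0.671 and 0.578). The pyrimidine nucleotide carriers SLC25A33 and SLC25A36, which supply nucleotides for mitochondrial DNA and RNA synthesis, averaged 2.97 ± 2.43 and 11.3 ± 3.17 TPM in pgEpiSC and 0.995 ± 0.410 and 6.50 ± 0.631 TPM in pEF (SD, n = 4 and 2). The ratio of SLC25A33 to SLC25A36 was 0.145, 0.436, 0.215 and 0.158 in pgEpiSC and 0.116 and 0.185 in pEF, and the groups overlapped.

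**Figure D3:**
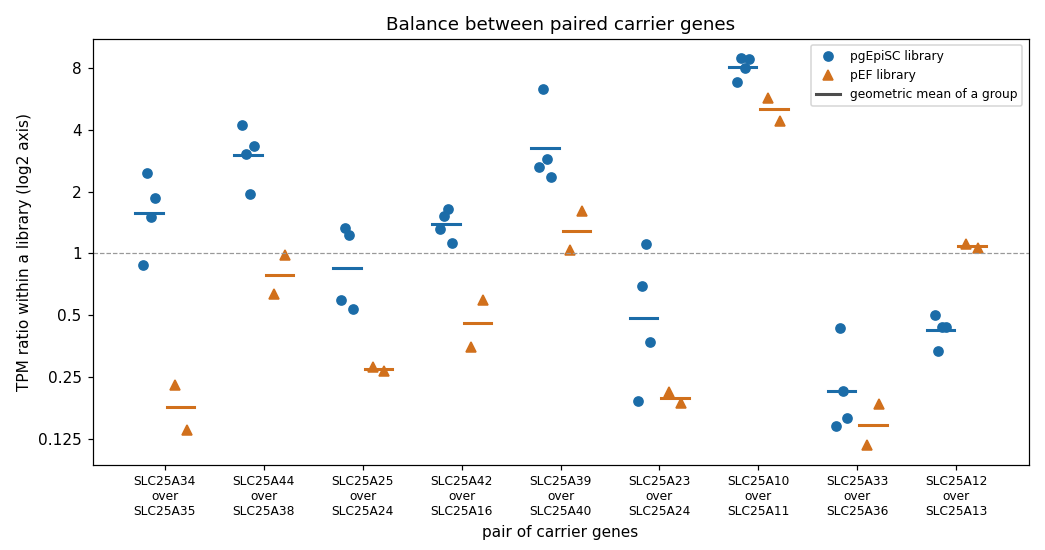
TPM ratio of paired carrier genes within each library on a log2 axis, with circles for the 4 pgEpiSC libraries, triangles for the 2 pEF libraries and a bar at the geometric mean of each group. SLC25A12 over SLC25A13 lies below 1 in every pgEpiSC library and just above 1 in pEF, while SLC25A23 over SLC25A24 and SLC25A33 over SLC25A36 overlap between the groups.

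Of 8 tested carriers of cofactors and metals, 0 rose and 1 fell as deposited (background 18.0% and 9.43%), and 0 rose and 5 fell after scaling (background 27.0% and 30.9%), with a median fold of -0.19 and -0.69. With limma at an unadjusted p below 0.05, 0 of the 8 were higher as deposited and 0 after scaling. The group as a whole held 9.57, 8.80, 11.8 and 9.21% of the summed carrier TPM in pgEpiSC and 17.6 and 15.4% in pEF. SLC25A28 (ENSSSCG00000037536), or mitoferrin-2, imports iron for heme and iron-sulfur cluster synthesis outside the red cell lineage. It was at 0.231, 0.455, 0.314 and 0.163 TPM in pgEpiSC and 2.31 and 1.41 TPM in pEF, and passed the filter through pEF alone. The fold was -1.14 ± 0.36 (limma, adjusted p = 0.0155) and -1.52 ± 0.25 after scaling (adjusted p = 0.00117). Of the fits with a library left out, the call as deposited was lost in that without pgEpiSC replicate 3 (-1.15, adjusted p = 0.0698), and it was lost without the variance trend, while after scaling it was kept with each library left out (-2.03 to -1.01).

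SLC25A16, which is linked to coenzyme A import, was at 1.15, 3.62, 1.85 and 1.27 TPM in pgEpiSC and 3.91 and 5.27 TPM in pEF, and the groups did not overlap. It was not called as deposited (-0.97 ± 0.55, limma, adjusted p = 0.190), was called without pgEpiSC replicate 2 (-1.20), and fell after scaling (-1.50 ± 0.17, adjusted p = 0.000149), also with each library left out. SLC25A42, which carries coenzyme A into the matrix in exchange for adenine nucleotides, was at 1.52, 5.52, 3.04 and 1.43 TPM in pgEpiSC and 1.37 and 3.14 TPM in pEF and was not called (0.19 as deposited and -0.29 after scaling). The ratio of SLC25A42 to SLC25A16 was 1.32, 1.52, 1.65 and 1.12 in pgEpiSC and 0.351 and 0.596 in pEF. SLC25A42 was therefore the more abundant of the pair in each pgEpiSC library and SLC25A16 in both pEF libraries.

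The glutathione carriers SLC25A39 and SLC25A40 also differed in balance. SLC25A39 was at 4.72, 22.1, 10.5 and 5.31 TPM in pgEpiSC and 3.47 and 5.53 TPM in pEF, and was not called (0.87 ± 0.57 as deposited and 0.30 ± 0.21 after scaling). SLC25A40 was at 1.79, 3.48, 3.66 and 2.24 TPM in pgEpiSC and 3.34 and 3.44 TPM in pEF, was not called as deposited (-0.24 ± 0.55) and fell after scaling (-0.75 ± 0.23, limma, adjusted p = 0.0224). The scaled call was lost without pgEpiSC replicate 3 or pEF replicate 1 (-0.74 and -0.47). The ratio of SLC25A39 to SLC25A40 was 2.64, 6.34, 2.87 and 2.36 in pgEpiSC and 1.04 and 1.61 in pEF, without overlap.

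SLC25A17, a carrier of the peroxisomal membrane for coenzyme A, FAD and NAD, was the most abundant member in pEF after SLC25A3 and SLC25A4. It was at 7.28, 15.5, 11.9 and 6.42 TPM in pgEpiSC and 10.7 and 14.1 TPM in pEF, overlapped as deposited (-0.31 ± 0.53) and fell after scaling (-0.92 ± 0.22, limma, adjusted p = 0.00856). That call did not hold without pEF replicate 1 (-0.76). The folate carrier SLC25A32 was at 1.71, 4.21, 4.04 and 1.74 TPM in pgEpiSC and 1.98 and 4.61 TPM in pEF, likewise overlapped (-0.13 ± 0.57) and fell after scaling (-0.63 ± 0.17, adjusted p = 0.0126). The scaled call of SLC25A32 was lost without pEF replicate 2 (-0.43). SLC25A26, which carries S-adenosylmethionine to the methyltransferases of the matrix, averaged 3.37 ± 1.87 TPM in pgEpiSC and 1.65 ± 0.391 TPM in pEF and was not called on either scale (0.62 and 0.15).

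The members with no settled substrate, or with a role outside transport, were not called. SLC25A46, an outer membrane protein linked to mitochondrial shape, averaged 4.78 ± 1.99 TPM in pgEpiSC and 3.33 ± 0.679 TPM in pEF, and its fold was 0.36 as deposited and -0.17 after scaling. SLC25A27, related to the uncoupling proteins, had folds of 0.22 and -0.11, and SLC25A47, known as a liver gene in mouse and human, of -0.05 and -0.39. SLC25A34 and SLC25A35, which were not tested, were at 0.136 to 0.722 and 0.119 to 0.293 TPM in pgEpiSC and at most 0.0152 and 0.110 TPM in pEF. The ratio of SLC25A34 to SLC25A35 was 0.876, 2.47, 1.51 and 1.87 in pgEpiSC and 0.229 and 0.139 in pEF. SLC25A48 was at 0.0107 to 0.0247 TPM in pgEpiSC and 0.0984 and 0.162 TPM in pEF, and SLC25A45 was at or below 0.0312 TPM in all libraries. Such levels say little at an unknown depth.

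Genes that import the carriers or work on what they transport were taken from 10 lists with 100 genes, of which 90 were in the table and 87 were tested. As deposited 21 rose, 5 fell and 61 were not called, and after scaling 26 rose, 26 fell and 35 were not called. As deposited these were 24.1% higher and 5.75% lower, beside 18.0% and 9.43% of all tested genes. After scaling they were 29.9% in each direction, beside 27.0% and 30.9%, so the lists together lay near the background. The same background shares apply to each list. Of the 26 called as deposited, 23 were also called after scaling, and 3 (ME3, ALDH1L2 and AMT) kept their call as deposited with each library left out. Leaving out either pEF library, which leaves 1 in that group, ended most of these calls. The share of all tested genes that lost a call in this way was not worked out. After scaling 16 of the 23 kept their call with each library left out, and TOMM20, TIMM13, MDH2, IDH1, ACADM, GLRX5 and SFXN4 did not. UCP2, GLS2, GLDC and AMT passed the filter through pgEpiSC alone, and ME3, ALDH1L2 and SFXN3 through pEF alone.

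Of related carriers with other symbols, UCP2, counted with the uncoupling proteins, was at 2.11, 6.84, 4.22 and 2.40 TPM in pgEpiSC and at 0.0333 TPM in 1 pEF library and listed at 0 in the other. It rose by 2.17 ± 0.52 log2 units (limma, adjusted p = 0.00156). The call was lost without pEF replicate 1 or 2 as deposited (2.14 and 2.19) and kept with each library left out after scaling. MTCH1, a carrier relative of the outer membrane, was at 9.70 to 35.6 TPM in pgEpiSC and 11.6 and 26.0 TPM in pEF, was not called as deposited (-0.08) and fell after scaling (-0.70). With a library left out, the scaled call of MTCH1 was kept only without pgEpiSC replicate 2 (-0.76). Its scaled fold was -0.68, -0.61 and -0.72 without pgEpiSC replicate 1, 3 or 4. It was -0.90 without pEF replicate 1 and -0.49 without pEF replicate 2. Of 11 tested genes of carrier import 4 rose (background 18.0%) and 7 were not called as deposited, with a median fold of 1.35 beside 0.48 for all genes. They were TOMM40, the pore of the outer membrane (14.1, 57.9, 24.7 and 13.1 TPM in pgEpiSC against 4.48 and 8.15 TPM in pEF), the receptor TOMM20, and the small TIM proteins TIMM8B and TIMM13. Their folds were 1.75, 1.50, 1.62 and 1.38; all 4 calls were lost without pEF replicate 1 (1.38 for TOMM40, 1.18 for TOMM20, 1.37 for TIMM8B and 1.05 for TIMM13), and those of TOMM40, TOMM20 and TIMM13 without pEF replicate 2 (2.12 for TOMM40, 1.82 for TOMM20, 1.71 for TIMM13). The calls of TOMM20, TIMM8B and TIMM13 were also lost without pgEpiSC replicate 3 (1.46 for TOMM20, 1.65 for TIMM8B, 1.37 for TIMM13). After scaling 4 rose (background 27.0%) and 7 were not called, with TIMM29 (0.93) in place of TIMM8B (1.02, not called). Of these, TOMM40 and TIMM29 kept the scaled call with each library left out. TIMM22 of the TIM22 translocase was not called on either scale (0.10 as deposited and -0.45 after scaling), nor was AGK (0.28 and -0.19). The outer membrane porins VDAC1 and VDAC3, which let metabolites reach the carriers, were not called; VDAC1 was at 34.4 to 97.7 TPM in pgEpiSC and 32.8 and 61.3 TPM in pEF.

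**Figure D4:**
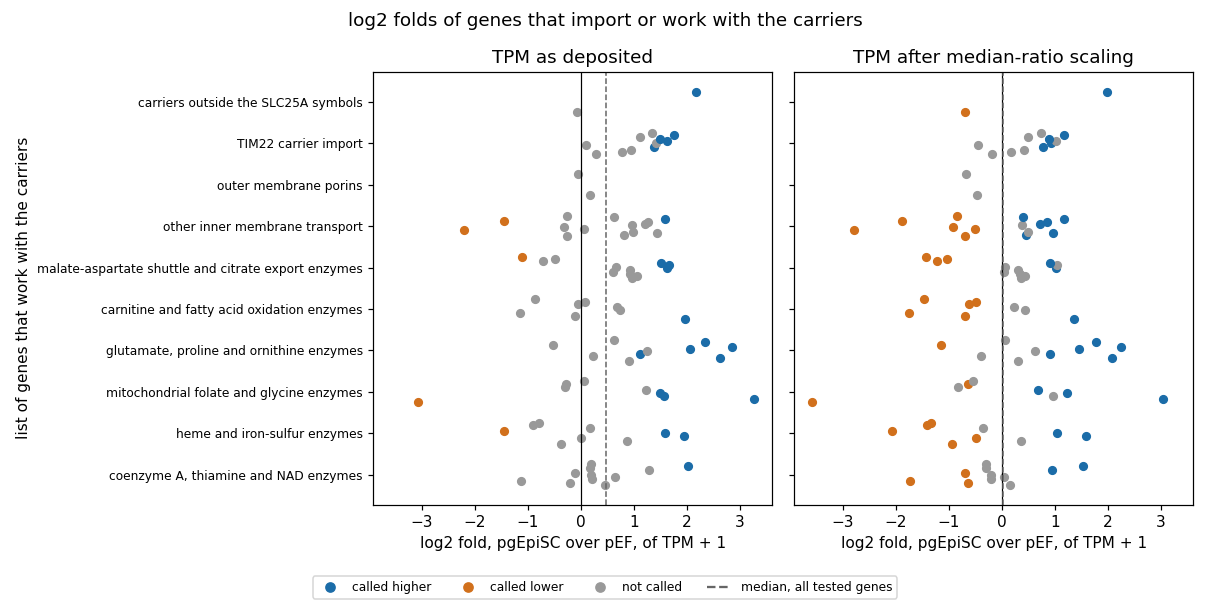
log2 fold of pgEpiSC over pEF for the tested genes of the 10 lists of carrier import and of enzymes that use the transported solutes, 1 point per gene and 1 row per list, for TPM as deposited on the left and after scaling on the right; colour marks genes called by limma and the dashed line is the median of all tested genes. The enzymes of glutamate, proline and ornithine show 5 genes called higher in both panels, whereas ALDH1L2 and AMT mark the lowest and highest fold among mitochondrial folate and glycine enzymes.

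Enzymes on either side of the glutamate and ornithine carriers came next. Of 10 tested, 5 rose (background 18.0%), 0 fell and 5 were not called as deposited (median 1.18), and 5 rose (background 27.0%) and 1 fell (background 30.9%) after scaling. Among those that rose were ODC1, which makes putrescine from ornithine (56.2, 280, 118 and 63.8 TPM in pgEpiSC, 7.33 and 24.5 TPM in pEF), the mitochondrial arginase ARG2 (21.5, 56.1, 34.1 and 24.7 TPM in pgEpiSC, 2.64 and 6.64 TPM in pEF), OAT, which converts ornithine, and the glutaminase GLS2. For these 4 the groups stood apart, with folds of 2.86 for ODC1, 2.64 for ARG2, 2.06 for OAT and 1.12 for GLS2. As deposited the calls of ODC1, ARG2 and OAT were lost without pEF replicate 1 (2.05 for ODC1, 2.10 for ARG2, 1.66 for OAT), and that of GLS2 without either pEF library or pgEpiSC replicate 2 or 3 (0.88 to 1.14). After scaling these 4 calls were kept with each library left out. PYCR1, an enzyme of proline synthesis, was not called as deposited (-0.53) and was the gene that fell after scaling (-1.14).

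Of 12 tested enzymes of the malate-aspartate shuttle and of citrate use, 3 rose and 1 fell as deposited (background 18.0% and 9.43%). The other 8 were not called (median 0.93 over the list). After scaling 2 rose and 3 fell (background 27.0% and 30.9%). The cytosolic and mitochondrial malate dehydrogenases MDH1 and MDH2 averaged 107 ± 12.1 and 31.9 ± 22.8 TPM in pgEpiSC and 33.7 ± 11.2 and 9.25 ± 4.16 TPM in pEF, and IDH1, the cytosolic isocitrate dehydrogenase, 34.8 ± 12.6 TPM in pgEpiSC and 11.2 ± 7.09 TPM in pEF (SD, n = 4 and 2). Their folds were 1.67, 1.51 and 1.62; after scaling MDH1 was not called (1.04, limma, adjusted p = 0.0750). All 3 calls were lost without pEF replicate 1 (1.33 for MDH1, 1.09 for MDH2, 0.99 for IDH1), and those of MDH2 and IDH1 without pgEpiSC replicate 3 (1.48 for MDH2, 1.58 for IDH1). MDH2 was not called without pEF replicate 2 either (1.94). ME3, a mitochondrial malic enzyme, fell (-1.12 ± 0.32, adjusted p = 0.00733) and was at 0.141 ± 0.0428 TPM in pgEpiSC and 1.47 ± 0.111 TPM in pEF.

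Of 8 tested enzymes of carnitine use and fatty acid oxidation 1 rose as deposited (background 18.0%) and 7 were not called (median 0.01). After scaling 1 rose and 5 fell (background 27.0% and 30.9%). It was ACADM that rose, the medium-chain acyl-CoA dehydrogenase, at 49.4, 46.8, 53.2 and 43.5 TPM in pgEpiSC and 8.72 and 15.4 TPM in pEF (1.96 ± 0.48, limma, adjusted p = 0.00198; 1.58 and not called without pEF replicate 1). CPT1A, which makes the acylcarnitines that SLC25A20 carries, was at 0.598, 4.82, 3.15 and 0.571 TPM in pgEpiSC and 4.03 and 6.60 TPM in pEF; it was not called as deposited (-1.15 ± 0.59) and fell after scaling (-1.76).

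Of 8 mitochondrial folate and glycine enzymes 3 rose and 1 fell as deposited (background 18.0% and 9.43%) and 4 were not called (median 0.65). After scaling 3 rose and 2 fell (background 27.0% and 30.9%). AMT and GLDC, components of the glycine cleavage system, were at 10.4 ± 4.57 and 2.46 ± 1.56 TPM in pgEpiSC and 0.108 ± 0.0673 and 0.135 ± 0.0251 TPM in pEF. Their folds were 3.28 ± 0.56 and 1.49 ± 0.47, and both genes passed the filter through pgEpiSC alone. The call of GLDC was lost without pgEpiSC replicate 3, pEF replicate 1 or pEF replicate 2 (1.28, 1.51 and 1.46). DLD, a subunit shared with the pyruvate dehydrogenase complex, rose as deposited (1.57 ± 0.48, limma, adjusted p = 0.0127), a call lost after scaling (0.96, adjusted p = 0.0933) and without pEF replicate 1 or pgEpiSC replicate 3 (1.38 and 1.54). ALDH1L2, which oxidises formyl-folate in the matrix, fell: it was at 0.235, 0.794, 0.641 and 0.241 TPM in pgEpiSC and 5.87 and 20.9 TPM in pEF (-3.07 ± 0.54, adjusted p = 2.97e-05). Beside these, the folate carrier SLC25A32 overlapped between the groups as deposited.

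Of 9 tested heme and iron-sulfur genes 2 rose and 1 fell as deposited, near the background of 18.0% and 9.43%, and 6 were not called (median -0.00). After scaling 2 rose and 5 fell (background 27.0% and 30.9%). GLRX5, of iron-sulfur cluster assembly, was among those that rose, at 18.1 ± 14.1 TPM in pgEpiSC and 4.47 ± 1.92 TPM in pEF (SD, n = 4 and 2; fold of 1.60). ISCU, the scaffold on which clusters form, was at 7.04, 20.9, 11.1 and 6.74 TPM in pgEpiSC and 20.3 and 43.6 TPM in pEF, with overlap as deposited (-1.44 ± 0.54, limma, adjusted p = 0.0395; -2.07 after scaling). As deposited the call of GLRX5 was lost without pEF replicate 1 or 2 (1.23 and 1.96) or pgEpiSC replicate 3 (1.59), and that of ISCU with any library but pgEpiSC replicate 2 left out (-1.98 to -0.91). After scaling GLRX5 lost its call without pEF replicate 1 (0.96), while ISCU kept its own. Of 11 tested genes of coenzyme A, thiamine and NAD synthesis 1 rose as deposited (background 18.0%) and 10 were not called (median 0.19). After scaling 2 rose and 3 fell (background 27.0% and 30.9%). The gene that rose as deposited was PANK3, a pantothenate kinase (2.02 ± 0.56, limma, adjusted p = 0.00603). Its call was lost without pEF replicate 1 or 2 (1.58 and 2.47).

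Of 14 tested genes of other inner membrane transport 1 rose and 2 fell as deposited (background 18.0% and 9.43%) and 11 were not called (median 0.72). After scaling 6 rose and 6 fell (background 27.0% and 30.9%). SFXN4, a sideroflexin, was at 5.60, 8.59, 5.46 and 5.02 TPM in pgEpiSC and 0.942 and 1.79 TPM in pEF (1.60 ± 0.56, limma, adjusted p = 0.0282). That call did not hold without pgEpiSC replicate 3 or either pEF library (1.64, 1.33 and 1.86). Its relative SFXN3 went the other way, at 0.491, 1.52, 0.917 and 0.546 TPM in pgEpiSC and 2.07 and 7.01 TPM in pEF (-1.44 ± 0.51, adjusted p = 0.0294), with the call lost without pgEpiSC replicate 1, 3 or 4 or pEF replicate 2 (-2.13 to -0.75 over the fits with a library left out). MCUB, the subunit that dampens the calcium uniporter, was at 0.607, 2.33, 2.29 and 0.884 TPM in pgEpiSC and 8.61 and 11.8 TPM in pEF (-2.21 ± 0.56, adjusted p = 0.00282). The call was lost as deposited without pEF replicate 1 or 2 (-2.42 and -2.0) and kept with each library left out after scaling (-2.91 to -2.66). The uniporter pore gene MCU itself was not called on either scale.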

How the data were processed

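Total RNA of 4 pgEpiSC and 2 pEF samples was depleted of ribosomal RNA and made into stranded libraries, per the labels' protocols. The authors deposited 1 table of TPM per gene, per the file headers, with 20132 rows, of which 69.8% carry a gene symbol. The submitters' processing notes name the aligner STAR (2.6.0c) and the quantifier kallisto (0.44.0), and the genome build is not given in the sources used here. TPM keeps no read depth, so no count test was run and no counting interval is given. Rows with the same symbol were summed.

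The test was limma 3.58.1 in R 4.3.3 on log2(TPM + 1), with a mean-variance trend and Benjamini-Hochberg adjustment over the 10424 genes with at least 1 TPM in 2 or more libraries. A fold on this scale understates the change of genes near or under 1 TPM. The groups were 4 pgEpiSC against 2 pEF libraries, and the code was tested on simulated data. Median-ratio factors came from the 14121 genes above 0 in all libraries. Where 1 pEF library was left out, the lone library was assumed to vary like the pgEpiSC group. Python 3.11.15, pandas 2.3.3, numpy 2.4.6 and matplotlib 3.10.9 made the summaries and plots.

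The members and lists were chosen with earlier results of these data known. Values in every library are given for called members, for the 5 most abundant of each group, for the ADP/ATP, phosphate and aspartate-glutamate carriers and for pairs of related genes whose ratio did not overlap, and up to 4 called genes are named per list. GLS2, PYCR1, CPT1A, MTCH1, TIMM29, TIMM22, AGK, VDAC1, VDAC3 and MCU fall outside that rule and were named after their values were seen. Of 22 pairs set up for ratios, 9 had a value in every library. SLC25A5, SLC25A6, SLC25A14, SLC25A30, SLC25A43 and SLC25A53 were not analysed here. Values of 1 member and of some genes of the lists are not reported here, though they are counted.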

Additional observations from a re-analysis of the deposited data

How the results depend on the processing

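Libraries differed in listed TPM, and the number of calls followed the scale chosen. Against 2 higher and 2 lower carrier genes as deposited, median-ratio scaling gave 4 and 9, quantile normalization 6 and 7, and rescaling each library to 1000000 gave 8 lower. A pseudocount of 5 gave 0 higher, no filter 0 higher, and a mean of at least 5 TPM 1 higher and 0 lower. Dropping the variance trend gave 1 and 1, and library weights 4 lower. Leaving out a library, with or without scaling, gave 0 to 4 higher and 0 to 10 lower. Over all tested genes, 1874 were higher and 983 lower as deposited. Median-ratio scaling gave 2812 and 3222, and quantile normalization 3374 and 2779. Rescaling gave 2924 lower, library weights 1616 lower, a pseudocount of 5 gave 967 higher, no filter 787 higher and the 5 TPM filter 1185 higher and 368 lower. With a library left out these counts ran from 252 to 2896 and from 555 to 3327. The difference in the SLC25A4 share was -0.24 to 0.08 points with a library left out. The carrier share of TPM over genes with a symbol was 0.276% in pgEpiSC and 0.228% in pEF. The cause of these shifts was not tested.

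Same-numbered libraries of the groups deviated from their group means with correlations of 0.0982 (number 1) and 0.172 (number 2), and the labels give no shared source. For pgEpiSC library 4 and pEF library 1, which differ in number, the value was 0.142. After scaling these 3 values were 0.0671, 0.113 and 0.131. Deviations of 2 pEF libraries from their mean are mirror images, so such values cannot show a pairing. In a fit with the replicate number as a block, pgEpiSC libraries 3 and 4 have no pEF library of the same number. The folds of that fit therefore rest on libraries 1 and 2 of each group alone. The replicate block gave 4 higher and 0 lower carrier genes, and with scaling 7 lower and 2624 lower over all genes. The calls of SLC25A24 (-1.42) and SLC25A28 (-1.08) were lost under the block as deposited, where 2 pgEpiSC libraries stood against 2 pEF libraries.

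Folds that changed sign, of members not called as deposited, were as follows. After median-ratio scaling they were -0.012 for SLC25A1, -0.0055 for SLC25A21, -0.11 for SLC25A27, -0.17 for SLC25A46, -0.26 for SLC25A44, -0.28 for SLC25A4, -0.29 for SLC25A42 and -0.44 for SLC25A12. With quantile normalization SLC25A27 was at -0.042, SLC25A42 at -0.069, SLC25A4 at -0.14, SLC25A44 at -0.15 and SLC25A12 at -0.21. Rescaling gave -0.051 for SLC25A36, -0.17 for SLC25A1, -0.17 for SLC25A21, -0.33 for SLC25A27, -0.35 for SLC25A46, -0.46 for SLC25A4, -0.52 for SLC25A42, -0.54 for SLC25A44 and -0.68 for SLC25A12. Library weights gave -0.10 for SLC25A44, -0.10 for SLC25A12 and -0.11 for SLC25A42. The replicate block gave 0.13 for SLC25A47, and the block with scaling -0.0061 for SLC25A21, -0.15 for SLC25A27, -0.16 for SLC25A44, -0.19 for SLC25A42, -0.22 for SLC25A46, -0.23 for SLC25A4 and -0.47 for SLC25A12. With a library left out, as deposited or scaled, the folds that changed sign ran from -0.17 to 0.86 for SLC25A1, -0.50 to 0.68 for SLC25A4, -0.53 to 0.33 for SLC25A12, -0.11 to 0.35 for SLC25A21, -0.91 to 0.014 for SLC25A23, -0.90 to 0.19 for SLC25A25, -0.14 to 0.38 for SLC25A27. They ran from -0.83 to 0.33 for SLC25A32, -0.14 to 0.81 for SLC25A36, -0.46 to 0.59 for SLC25A42, -0.41 to 0.43 for SLC25A44, -0.29 to 0.53 for SLC25A46 and -0.51 to 0.22 for SLC25A47. These ranges pool both scales. SLC25A23, SLC25A25 and SLC25A32 were called lower after scaling, and their scaled folds stayed below 0 with each library left out.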
